A study of Mus musculus with 7 samples.

Results

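The 8 genes described here code for central parts of AKT and mTOR signalling: the kinases Akt1 and Akt2, the kinase Mtor, its partners Rptor and Rictor, the brakes Tsc1 and Tsc2, and the stress-induced Sesn1. They were chosen by gene symbol, with no measured value used, and all 8 were found among the 15415 genes of the deposited count table. All 8 also passed the filter on low counts that left 12266 genes for testing.

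RNA was sequenced from hair follicle cells of mouse back epidermis that were sorted as positive for GFP, the readout of Lgr5, and negative for CD45 and DAPI. Lgr5 is a marker of hair follicle stem cells, CD45 marks leukocytes, and DAPI stains dead cells. The groups were 3 Telogen samples from mice 45 days old and 4 Anagen samples from mice 35 days old, all of the C57Bl6 x B10D2 cross. Telogen is the resting phase and Anagen the growth phase of the hair cycle, and the series title concerns quiescent stem cells and immune surveillance. No treatment is named for either group. Age and phase cannot be told apart, and no label says whether a sample was 1 mouse or a pool, so a p-value speaks only for the variation among these libraries, part of which may be technical.

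AKT kinases are switched on downstream of growth factor receptors by phosphoinositide 3-kinase (PI3K), and they phosphorylate and inhibit the complex of Tsc1 and Tsc2. That complex holds back the small GTPase Rheb, the direct activator of mTOR complex 1 (mTORC1, defined by Rptor), which drives protein synthesis and growth and restrains autophagy. A second complex, mTORC2, is defined by Rictor and phosphorylates AKT itself, while sestrins pass on amino acid and stress signals that lower mTORC1 activity. In the hair follicle this pathway is known for its part in the activation of resting stem cells. RNA levels carry no information on phosphorylation, by which most of these proteins are controlled.

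Total counts ranged over 5097457 to 6453337 for the Telogen libraries and 13719893 to 17042690 for the Anagen libraries, so depth did not overlap between groups and cannot be told apart from phase. Lgr5 was detected in every library, at 446 to 473 CPM (counts scaled by TMM-adjusted totals) in Telogen and 24.9 to 82.7 CPM in Anagen. The bulge markers Cd34 and Krt15 were at 497 to 534 and 6343 to 9972 CPM in Telogen, against 7.21 to 19.02 and 115 to 240 CPM in Anagen. The proliferation marker Mki67 was at 0.534 to 4.96 CPM in Telogen and 126 to 164 CPM in Anagen. The 10 listed of 15 leukocyte markers summed to 7.66 to 32.9 CPM in Telogen and 4.91 to 11.2 CPM in Anagen; Ptprc, which encodes CD45, was at 0 in 2 of 3 Telogen and 3 of 4 Anagen libraries. The 9 listed of 10 dermal fibroblast markers summed to 191 to 231 CPM in Telogen and 83.0 to 1526 CPM in Anagen. Anagen 1 and 2 stood apart with Col1a1 at 271 and 364 CPM, against 16.1 and 23.3 CPM in Anagen 3 and 4. Col1a1 was at 5.11 to 5.94 CPM in Telogen, so most of the Telogen sum came from other genes of the list. Decorin (Dcn) and lumican (Lum) were at 0 in all Telogen libraries. The 7 outer root sheath and companion layer markers summed to 7810 to 12527 CPM in Telogen and 24715 to 29851 CPM in Anagen. The 5 listed of 7 muscle and pericyte markers summed to 1.44 to 3.37 CPM in Telogen, with Myh11, Cnn1 and Pdgfrb at 0, and 15.2 to 36.3 CPM in Anagen. The 5 listed of 7 endothelial markers summed to 0 to 2.49 CPM in Telogen, with Cdh5, Kdr and Emcn at 0, and 2.16 to 10.6 CPM in Anagen. The part of these cell types in the results was not tested. Because each library pools RNA of many cells, fewer cells of a type and less RNA per cell cannot be told apart.

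In Telogen, 5 of the 8 genes were lower than in Anagen (Akt1, Mtor, Rptor, Tsc2 and Sesn1), 1 was higher (Tsc1), and Akt2 and Rictor did not pass the test. Calls are adjusted p under 0.05 in edgeR's quasi-likelihood test, and log2 fold changes are Telogen minus Anagen. Changes were common in these data: 49.5% of all tested genes passed, 23.7% as higher and 25.8% as lower in Telogen. The median log2 fold change of the 8 genes was -0.82, against -0.09 for all genes tested. With GC content and length modelled, as described below, these medians were -0.18 and -0.11. CPM values of the groups did not overlap for 6 of the 8 genes, a count to be read against 54.5% of all tested genes.

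**Figure D1:**
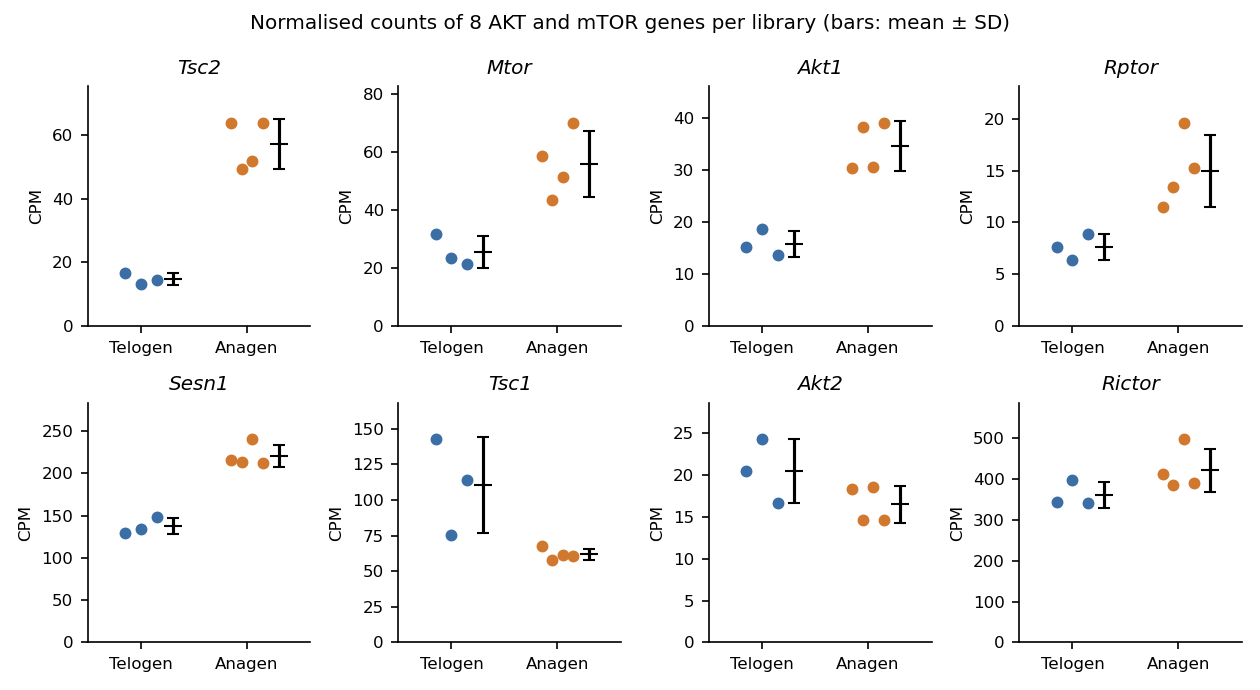
Normalised counts (CPM, vertical axes from 0) of the 8 genes in 3 Telogen and 4 Anagen libraries; each point is 1 library and bars give mean ± SD. Telogen points lie wholly below Anagen points for Tsc2, Mtor, Akt1, Rptor and Sesn1, wholly above for Tsc1, and overlap for Akt2 and Rictor.

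Tsc2 encodes tuberin, the subunit of the TSC complex that acts on Rheb as a GTPase-activating protein, and Tsc1 encodes hamartin, which stabilises it. Tsc2 was counted on chromosome 17 (24595816 to 24632627, minus strand, mm10) as NM_001286720, and Tsc1 on chromosome 2 (28641233 to 28691172, plus strand) as NM_001289575. Tsc2 was at 16.7, 13.1 and 14.5 CPM in Telogen 1 to 3, against 63.7, 49.3, 51.6 and 63.8 CPM in Anagen 1 to 4. The groups were far apart, with every Telogen library below every Anagen library, and the fall was 3.87-fold (log2 fold change -1.95 ± 0.25 SE, adjusted p = 0.000116, edgeR). Tsc1 was at 143, 75.3 and 114 CPM in Telogen 1 to 3, against 67.5, 57.6, 61.4 and 60.6 CPM in Anagen 1 to 4. Telogen libraries varied widely, with Telogen 2 close above the highest Anagen library, while the Anagen libraries lay close together. The rise was 1.79-fold (log2 fold change 0.84 ± 0.24 SE, adjusted p = 0.0126, edgeR). It did not pass without Telogen 1 (0.61, adjusted p = 0.0589) or without Anagen 1 and 2, the collagen-high libraries (0.86, adjusted p = 0.0793, edgeR).

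The ratio of these partners within a library does not depend on its total count; it is given as a description, since the directions of both genes fix its direction. The ratio of Tsc2 to Tsc1 in RPKM, the authors' counts per transcript length and total, was 0.142, 0.211 and 0.154 in Telogen 1 to 3, against 1.14, 1.04, 1.02 and 1.27 in Anagen 1 to 4. In Telogen there was much more Tsc1 than Tsc2 RNA per length, while in Anagen the 2 were near equal. The difference of the log2 ratio was -2.74.

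In GENCODE M21, 693 exonic bases of Tsc2 (7.2%) are shared with Pkd1, the polycystin gene on the opposite strand. Strand handling is not given in the sources used here, so reads from those bases cannot be assigned. Pkd1, which was named for this overlap, was at 11.9, 3.84 and 14.5 CPM in Telogen, against 29.7, 19.9, 19.3 and 31.8 CPM in Anagen (log2 fold change -1.33 ± 0.44 SE, adjusted p = 0.0266, edgeR). Its groups did not overlap, but the call was lost without Anagen 1 (adjusted p = 0.0661) or Anagen 4 (0.0703), and with GC and length offsets the log2 fold change was 0.0084 (0.989). The part of the shared bases in the Tsc2 result was not tested.

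The promoters of these partners are shown because the genes moved in opposite directions; each is the 250 bases upstream of the counted start, 5′ to 3′ on the gene's strand, from RefSeq (GRCm38.p6). Capitals mark matches, on either strand, to any of 5 motifs: the CCAAT box (CCAAT), the GC box (GGGCGG), a FOXO motif (GTAAACA), an E-box (CACGTG) and an ETS motif (CCGGAAG).
Tsc2 (chr17:24632628-24632877, minus strand): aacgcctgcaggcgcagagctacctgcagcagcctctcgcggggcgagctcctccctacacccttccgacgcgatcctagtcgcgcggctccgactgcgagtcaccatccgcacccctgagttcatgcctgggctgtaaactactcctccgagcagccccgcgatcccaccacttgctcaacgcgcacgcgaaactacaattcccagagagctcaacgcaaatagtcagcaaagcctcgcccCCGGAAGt
Tsc1 (chr2:28640983-28641232, plus strand): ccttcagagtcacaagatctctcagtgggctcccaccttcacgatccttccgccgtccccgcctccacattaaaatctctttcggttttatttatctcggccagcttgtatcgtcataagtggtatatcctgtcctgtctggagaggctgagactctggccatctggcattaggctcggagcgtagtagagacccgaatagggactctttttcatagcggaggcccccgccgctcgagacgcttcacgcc
The Tsc2 window held 1 ETS motif next to the start and none of the other 4 motifs, and the Tsc1 window held none of the 5. Among 32851 RefSeq windows of this length, 6.91% held the ETS motif, 33.8% the CCAAT box, 32.7% the GC box, 6.02% the E-box and 3.17% the FOXO motif. A match describes letters only, and nothing on binding follows from it.

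Akt1 and Akt2 are close paralogs that phosphorylate overlapping substrates; Akt1 is best known for growth and survival and Akt2 for the insulin response. Akt1 (NM_009652) was counted on chromosome 12 (112653821 to 112674276, minus strand) and Akt2 (NM_001110208) on chromosome 7 (27591560 to 27639453, plus strand). Akt1 was at 15.1, 18.5 and 13.7 CPM in Telogen 1 to 3, against 30.3, 38.3, 30.6 and 39.1 CPM in Anagen 1 to 4. All Telogen libraries were below all Anagen libraries, a 2.19-fold fall (log2 fold change -1.13 ± 0.26 SE, adjusted p = 0.00489, edgeR). Akt2 was at 20.5, 24.3 and 16.6 CPM in Telogen 1 to 3, against 18.3, 14.6, 18.5 and 14.6 CPM in Anagen 1 to 4. Its groups overlapped, since Telogen 3 lay within the Anagen range (log2 fold change 0.31 ± 0.28 SE, 95% interval -0.30 to 0.92, adjusted p = 0.374, edgeR).

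Within libraries the balance of the kinases differed between phases. The ratio of Akt2 to Akt1 in RPKM was 1.15, 1.12 and 1.04 in Telogen 1 to 3, against 0.514, 0.325, 0.516 and 0.317 in Anagen 1 to 4. Akt2 was thus slightly the more abundant per length in every Telogen library and the less abundant in every Anagen library. The difference of the log2 ratio was 1.44 (exact two-sided permutation test, p = 0.0286, the smallest that the 35 splits allow). The adjusted p of this test was 0.0429 over 3 ratios, that of Tsc2 to Tsc1 included. Akt1 had already passed as lower and Akt2 had not fallen, so the test adds no separate support. With GC content and length modelled, as described below, the difference of the edgeR fold changes was 1.38.

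Mtor encodes the kinase shared by both complexes, Rptor the scaffold (raptor) that brings substrates to mTORC1, and Rictor the scaffold of mTORC2. Mtor (NM_020009) was counted on chromosome 4 (148448582 to 148557685, plus strand), Rptor (NM_028898) on chromosome 11 (119602905 to 119899591, plus strand) and Rictor (NM_030168) on chromosome 15 (6708381 to 6800400, plus strand). Mtor was at 31.7, 23.5 and 21.4 CPM in Telogen 1 to 3, against 58.6, 43.5, 51.3 and 70.0 CPM in Anagen 1 to 4. Telogen 1 was the highest of its group and still below the lowest Anagen library, and the fall was 2.19-fold (log2 fold change -1.13 ± 0.27 SE, adjusted p = 0.00521, edgeR).

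Rptor was at 7.66, 6.39 and 8.92 CPM in Telogen 1 to 3, against 11.5, 13.5, 19.6 and 15.2 CPM in Anagen 1 to 4. The groups did not overlap, and the 1.95-fold fall passed narrowly (log2 fold change -0.97 ± 0.34 SE, adjusted p = 0.0341, edgeR). Without Telogen 1 (adjusted p = 0.0635), Telogen 2 (0.0827), Anagen 2 (0.0589), Anagen 3 (0.101) or Anagen 4 (0.0610), each left out alone, the Rptor call was lost in edgeR. Rptor shares 84 exonic bases (0.624%) with the antisense RNA gene Rptoros.

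Rictor was at 345, 397 and 341 CPM in Telogen 1 to 3, against 412, 384, 498 and 390 CPM in Anagen 1 to 4. Telogen 2 lay among the Anagen libraries, so the groups overlapped (log2 fold change -0.22 ± 0.17 SE, 95% interval -0.60 to 0.16, adjusted p = 0.305, edgeR). The ratio of Rictor to Rptor in RPKM was 34.0, 46.8 and 28.8 in Telogen 1 to 3, against 27.1, 21.6, 19.1 and 19.3 in Anagen 1 to 4. Every Telogen ratio was above every Anagen ratio by a small margin at the edge, and the difference of the log2 ratio of 0.73 did not pass (exact two-sided permutation test, p = 0.0571, adjusted p = 0.0571 over 3 ratios). With GC content and length modelled, the difference of the edgeR fold changes was 0.09.

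Sesn1 encodes sestrin 1, a stress protein induced by p53 and FOXO factors that restrains mTORC1 through the GATOR complexes. It was counted on chromosome 10 (41810574 to 41908436, plus strand) as NM_001162908. Sesn1 was at 130, 134 and 148 CPM in Telogen 1 to 3, against 216, 214, 241 and 212 CPM in Anagen 1 to 4. Both groups were tight and well separated, with Telogen lower by 1.61-fold (log2 fold change -0.68 ± 0.17 SE, adjusted p = 0.00652, edgeR).

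The promoters of Mtor and Sesn1 are shown as those of 2 genes that passed as lower in Telogen. With GC content and length modelled, as described below, Sesn1 still passed and Mtor did not. Capitals mark the same 5 motifs.
Mtor (chr4:148448332-148448581, plus strand): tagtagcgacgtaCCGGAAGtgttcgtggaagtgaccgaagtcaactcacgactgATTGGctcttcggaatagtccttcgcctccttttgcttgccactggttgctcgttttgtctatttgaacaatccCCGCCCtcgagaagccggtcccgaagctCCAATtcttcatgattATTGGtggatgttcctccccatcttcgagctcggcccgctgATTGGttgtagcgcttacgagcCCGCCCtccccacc
Sesn1 (chr10:41810324-41810573, plus strand): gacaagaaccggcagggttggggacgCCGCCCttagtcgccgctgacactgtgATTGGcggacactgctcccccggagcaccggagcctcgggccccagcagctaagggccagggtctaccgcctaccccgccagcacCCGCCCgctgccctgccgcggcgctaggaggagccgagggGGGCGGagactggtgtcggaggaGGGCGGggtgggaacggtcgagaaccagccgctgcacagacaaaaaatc
The Mtor window held 4 CCAAT boxes, 2 GC boxes and 1 ETS motif, and the Sesn1 window held 4 GC boxes and 1 CCAAT box. Of the windows not shown, the one at the counted Akt1 start held 4 GC boxes, that of Rictor 4 GC boxes and 1 CCAAT box, that of Akt2 1 GC box and that of Rptor none of the 5 motifs. The window at the other Akt1 start held 1 FOXO motif, the other 3 Akt2 windows held none of the 5 motifs, and the other Sesn1 window held 4 GC boxes and 1 CCAAT box. At the counted starts, the windows of the genes that fell held from 0 to 7 matches, and Rictor, which did not pass, held 5.

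Per transcript length, Sesn1 and Rictor were the most abundant of the 8 genes in both phases. In Telogen the order by mean RPKM was Sesn1 (41.4 ± 4.19 SD, n = 3), Rictor (37.1 ± 3.64), Tsc1 (13.7 ± 3.89), Akt2 (6.19 ± 1.13), Akt1 (5.61 ± 0.903), Mtor (2.82 ± 0.498), Tsc2 (2.22 ± 0.218) and Rptor (1.04 ± 0.190). In Telogen the ranges of Sesn1 and Rictor overlapped, as did those of Akt2 and Akt1, and all other neighbours in this order were apart. In Anagen the order was Sesn1 (71.1 ± 4.89 SD, n = 4), Rictor (46.3 ± 5.86), Akt1 (13.2 ± 2.01), Tsc2 (9.17 ± 1.03), Tsc1 (8.21 ± 0.353), Mtor (6.62 ± 1.23), Akt2 (5.34 ± 0.655) and Rptor (2.18 ± 0.525). From Tsc2 down to Akt2 each Anagen range overlapped the next. Tsc1 therefore stood above Akt1, Akt2, Mtor and Tsc2 in Telogen, whereas in Anagen Akt1 stood above Tsc2, Tsc1, Mtor and Akt2.

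**Figure D2:**
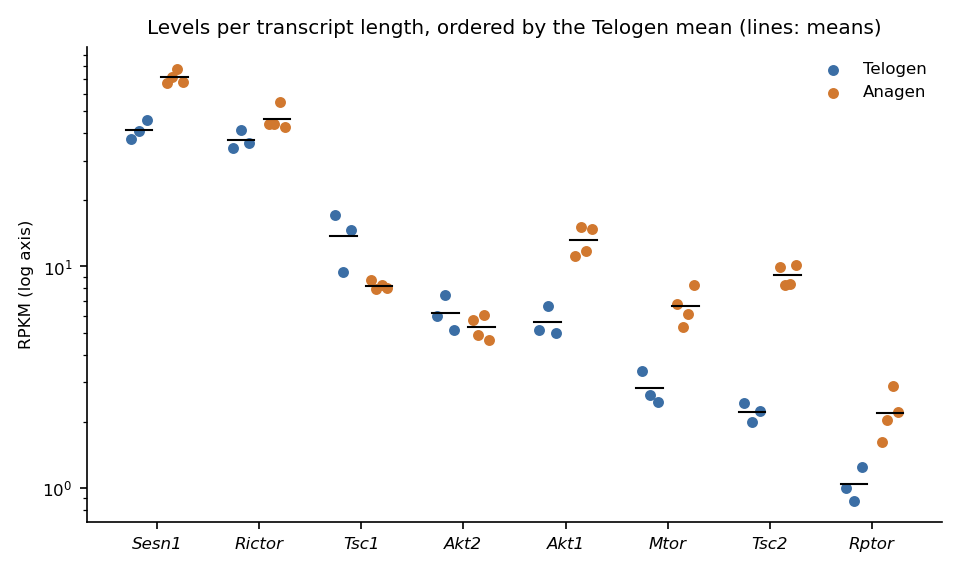
RPKM (log axis) of the 8 genes in each of 3 Telogen and 4 Anagen libraries, ordered by the Telogen mean; points are libraries and lines are group means. Sesn1 and Rictor are highest and Rptor lowest in both groups, while Tsc1 and Tsc2 are far apart in Telogen and close together in Anagen.

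Fold changes across all genes also moved with the GC content of the transcript. The median log2 fold change was 0.42 in the decile of genes with the lowest GC content and -0.53 in the decile with the highest. Rictor, at 42.5% GC, lay in the next to lowest decile, Sesn1 at 49.8% near the middle, and the other 6 genes between 51.7% (Tsc1) and 59.7% (Akt1). Genes alike in GC content (within 2 percentage points) and length (within 1.5-fold) had a median of -1.02 for Mtor (246 genes) and -1.12 for Rptor (274 genes), each within 1 SE of the gene's own value, and of -0.76 for Akt1 (612 genes). The same median was -0.99 for Tsc2 (486 genes), -0.74 for Tsc1 (429 genes), -0.61 for Akt2 (1148 genes), -0.40 for Rictor (233 genes) and -0.20 for Sesn1 (1260 genes).

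Modelling GC content and length as offsets in edgeR, where 45.0% of all genes passed, left 2 genes lower (Tsc2 and Sesn1) and 2 higher (Tsc1 and Akt2). Under these offsets Tsc2 had a log2 fold change of -1.20 (adjusted p = 0.00145), Sesn1 of -0.51 (0.0247), Tsc1 of 1.46 (0.000549) and Akt2 of 0.85 (0.0280). The calls of Akt1 (-0.53, adjusted p = 0.116), Mtor (-0.26, adjusted p = 0.400) and Rptor (-0.10, adjusted p = 0.815) ended, and Rictor again did not pass (-0.02, adjusted p = 0.950, edgeR). The part of GC content in the results without offsets was not tested. Without Anagen 1 and 2, where 37.0% of all genes passed, 4 genes were lower (Akt1, Mtor, Tsc2 and Sesn1) and 0 higher; the remaining 4 did not pass.

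**Figure D3:**
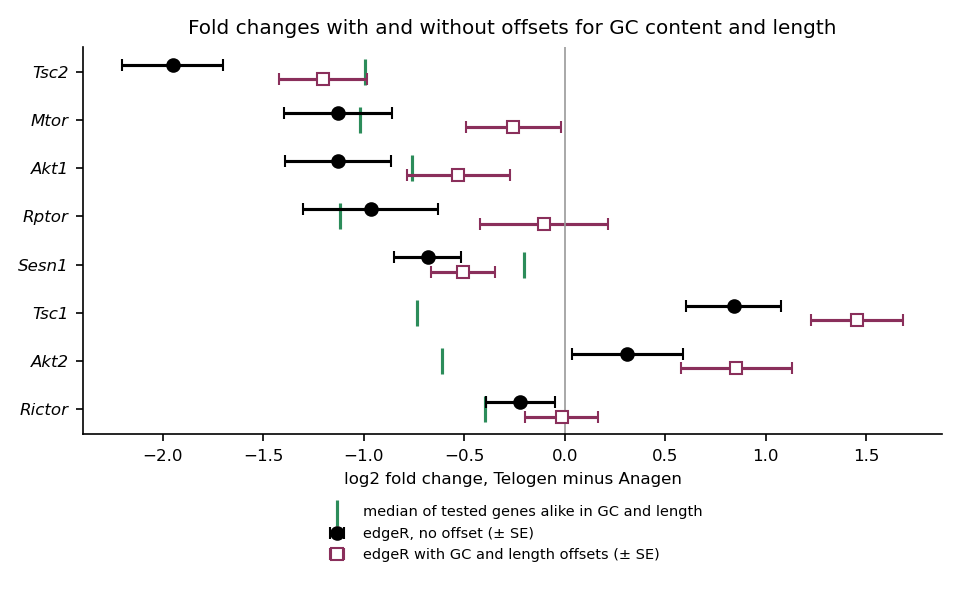
Log2 fold changes (Telogen minus Anagen, horizontal axis) of the 8 genes by edgeR without offsets (filled circles ± SE) and with GC and length offsets (open squares ± SE); green ticks are medians of tested genes alike in GC content and length. Mtor and Rptor lie near their green ticks and move towards 0 with offsets, while Tsc2, Sesn1 and Tsc1 stay away from 0.

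**Figure D4:**
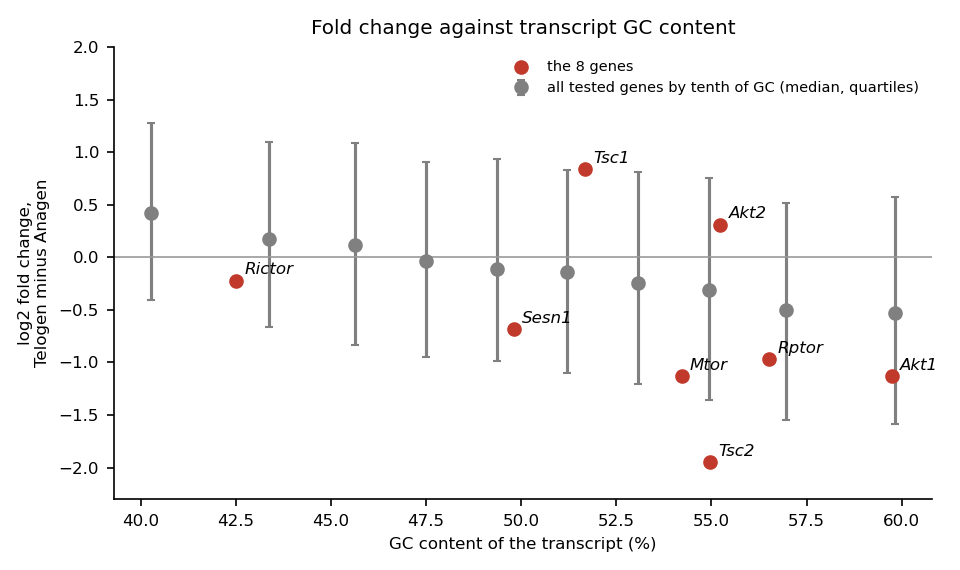
Log2 fold change (Telogen minus Anagen) against GC content of the transcript (%). Grey points are medians of all tested genes by decile of GC content with quartiles as bars, and fall across the axis to -0.53; red points are the 8 genes.

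Around these 8 genes, 116 other genes of the pathway were listed by role, of which 111 were tested: 16 were higher in Telogen, 38 lower and 57 did not pass, with a median log2 fold change of -0.38. The share called was close to the 49.5% of all tested genes, and the lists were made with earlier results of these data known. Lists include any of the 8 genes that belong to them.

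**Figure D5:**
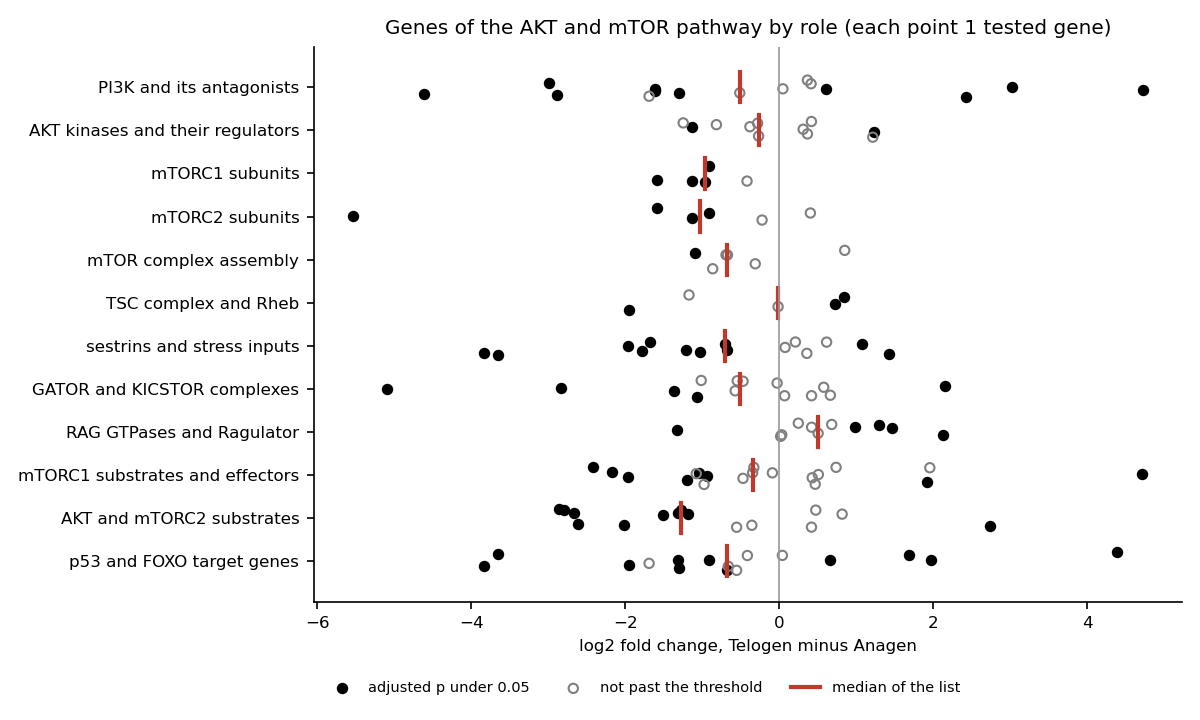
Log2 fold change (Telogen minus Anagen, horizontal axis) of every tested gene of the pathway, by role. A further row holds the list of p53 and FOXO target genes, described under Other observations. Filled points have an adjusted p under 0.05, open points do not, and red bars are list medians. The RAG and Ragulator list has a median above 0 (0.51), and the median of every other list is below 0; the far left point in the mTORC2 row is Prr5, with 2 counts in all of Telogen.

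Upstream of AKT, 4 of 15 tested genes of PI3K signalling were higher in Telogen, 6 lower and 5 did not pass. Pik3r1, the main regulatory subunit, averaged 622 ± 70.2 CPM in Telogen and 116 ± 9.87 CPM in Anagen (SD, n = 3 and 4; log2 fold change 2.43, adjusted p = 2.35e-06, edgeR). Another regulatory subunit, Pik3r3, averaged 2.54 ± 2.12 CPM in Telogen and 62.7 ± 12.3 CPM in Anagen (-4.62, adjusted p = 3.2e-05). Subunit genes of the same family thus moved in opposite directions. Irs1, an adaptor that links insulin and IGF receptors to PI3K, averaged 38.1 ± 5.71 CPM in Telogen and 4.68 ± 0.164 CPM in Anagen (3.02, adjusted p = 1e-05). Inpp4b, a phosphatase that removes a PI3K product, averaged 136 ± 74.6 CPM in Telogen and 5.15 ± 4.07 CPM in Anagen (4.72, adjusted p = 0.000174). Of 11 tested AKT kinases and regulators, Akt1 fell, Them4 rose and 9 did not pass. Without Telogen 2, 2 were higher and 2 lower. With offsets Akt2 was higher and 2 were lower, and neither Akt1 nor Them4 passed. Them4, which codes for an AKT-binding protein, averaged 28.9 ± 6.61 CPM in Telogen and 12.4 ± 2.43 CPM in Anagen (1.23, adjusted p = 0.00530, and 0.115 with offsets).

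Of the 5 mTORC1 genes, 4 were lower in Telogen (Mtor, Rptor, Mlst8 and Deptor) and Akt1s1 did not pass; with GC and length offsets 1 passed as lower (Mlst8), and without Anagen 1 and 2 also 1 (Mtor). Without Telogen 1, Anagen 2 or Anagen 4, each left out alone, 2 of the 5 were lower. Mlst8, a subunit of both complexes, was at 3.03, 2.40 and 4.36 CPM in Telogen, against 11.6, 8.71, 8.50 and 10.4 CPM in Anagen (log2 fold change -1.59 ± 0.40 SE, adjusted p = 0.00762, edgeR). Every Telogen library was below every Anagen library, but the call was lost without Anagen 1 and 2 (adjusted p = 0.0693). Deptor, an inhibitory subunit of both complexes, was at 17.6, 37.4 and 37.4 CPM in Telogen, against 73.9, 68.2, 35.5 and 55.0 CPM in Anagen, with overlap at Anagen 3 (-0.92, adjusted p = 0.0460). The Deptor call was lost with offsets (adjusted p = 0.124) and without any of Telogen 1 (0.131), Anagen 1 (0.122), Anagen 2 (0.106) or Anagen 4 (0.0775). Akt1s1, an inhibitor of mTORC1 that AKT phosphorylates, was at 8.90, 8.79 and 7.53 CPM in Telogen, against 12.8, 7.06, 12.2 and 12.9 CPM in Anagen (-0.42, adjusted p = 0.346).

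Of 6 tested mTORC2 genes, Mtor, Mlst8, Deptor and Prr5 were lower in Telogen, and Rictor and Mapkap1 did not pass. Without Anagen 1 and 2, 2 of the 6 were lower, and with offsets 2 were lower and 1 higher. Prr5, which encodes an accessory subunit, had 2 counts over the 3 Telogen libraries and 365 over the 4 Anagen libraries (adjusted p = 0.00291, edgeR). Per count of depth that is an Anagen to Telogen ratio of 50.2, with a 95% interval of 13.8 to 416 that covers counting error only. Mapkap1, which encodes the substrate-binding subunit SIN1, was at 75.5, 101 and 86.4 CPM in Telogen, against 73.4, 53.6, 58.8 and 78.5 CPM in Anagen (0.41, adjusted p = 0.149; 0.57, adjusted p = 0.0451 with offsets). Prr5l, a relative of Prr5, had 0 counts in Telogen and was not tested. Among 6 genes for assembly of the complexes, only Tti1 passed, as lower (-1.10, adjusted p = 0.0491), and this call was lost whenever a single library other than Telogen 3 was left out (adjusted p 0.0550 to 0.132).

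Beside Tsc1 and Tsc2, the TSC and Rheb list held Rheb, Tbc1d7 and Rhebl1, and 2 of the 5 were higher, 1 lower and 2 did not pass. Without Telogen 1, 0 were higher; without Anagen 1, 2 were lower; without both Anagen 1 and 2, 0 were higher and 2 lower; and with offsets 1 was higher and 2 lower. Rheb was at 206, 139 and 144 CPM in Telogen, against 101, 110, 99.1 and 82.8 CPM in Anagen (log2 fold change 0.73 ± 0.21 SE, adjusted p = 0.0137, edgeR). All Telogen libraries were above all Anagen libraries, yet the difference was 0.07 with offsets (adjusted p = 0.797) and the call was lost without Telogen 1 (adjusted p = 0.0626) and without Anagen 1 and 2 (0.0550). Tbc1d7, a further TSC subunit, was at 3.03, 3.84 and 3.37 CPM in Telogen, against 4.32, 5.95, 9.60 and 10.9 CPM in Anagen (-1.17, adjusted p = 0.0586; -1.78, adjusted p = 0.0138 with offsets). Rhebl1, a relative of Rheb, averaged 2.83 ± 1.26 CPM in Telogen and 2.85 ± 2.05 CPM in Anagen (-0.01, adjusted p = 0.989).

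Among 15 tested sestrins and stress inputs, 9 were lower in Telogen, 2 higher and 4 did not pass; without Anagen 1 and 2, 5 were lower and 1 higher. The other two sestrins were lower as well. Sesn3 was at 3.21, 4.48 and 14.7 CPM in Telogen, against 84.6, 70.1, 90.2 and 125 CPM in Anagen (log2 fold change -3.65 ± 0.50 SE, adjusted p = 0.000176, edgeR). Sesn2 was at 2.14, 0 and 0.991 CPM in Telogen, against 15.5, 11.5, 18.7 and 13.5 CPM in Anagen (-3.84 ± 0.74 SE, adjusted p = 0.00153). Sestrin RNA of all 3 genes was therefore lower in Telogen, with no overlap of groups for any of them. Subunits of AMP-activated protein kinase, the energy sensor that phosphorylates Tsc2, moved both ways. Prkag1 averaged 102 ± 26.5 CPM in Telogen and 37.9 ± 7.35 CPM in Anagen (1.43, adjusted p = 0.00107). Prkab2 averaged 10.1 ± 4.28 CPM in Telogen and 39.4 ± 11.3 CPM in Anagen (-1.963, adjusted p = 0.00129).

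The amino acid branch was mixed. Of 14 tested genes of GATOR and KICSTOR, which restrain or release mTORC1 with amino acid supply, 4 were lower in Telogen (2 with offsets), 1 higher and 9 did not pass. Gatsl2 (also Castor2), a relative of the arginine sensor CASTOR1, averaged 0.257 ± 0.305 CPM in Telogen and 8.65 ± 1.78 CPM in Anagen (log2 fold change -5.09, adjusted p = 0.000354, edgeR). Gatsl2 had 1, 0 and 3 counts in Telogen 1 to 3, so the size of its fold change rests on very few counts. BC048403, of the KICSTOR list, averaged 36.3 ± 9.86 CPM in Telogen and 8.17 ± 3.34 CPM in Anagen (2.15, adjusted p = 0.00101). Wdr24, of GATOR2, averaged 6.06 ± 1.47 CPM in Telogen and 15.7 ± 3.60 CPM in Anagen (-1.37, adjusted p = 0.00874, and 0.0855 with offsets).

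RAG GTPases and Ragulator bring mTORC1 to the lysosome, and 4 of their 11 tested genes were higher in Telogen, 1 was lower (2 with offsets) and 6 did not pass. Rraga was at 3027, 2200 and 2080 CPM in Telogen, against 672, 602, 595 and 357 CPM in Anagen (log2 fold change 2.13 ± 0.24 SE, adjusted p = 4.31e-05, edgeR). Every Telogen library was far above every Anagen library. Fnip1, a partner of folliculin, averaged 124 ± 38.0 CPM in Telogen and 50.2 ± 8.46 CPM in Anagen (1.30, adjusted p = 0.00179). Lamtor5, a Ragulator subunit, averaged 50.5 ± 5.95 CPM in Telogen and 18.3 ± 5.63 CPM in Anagen (1.46, adjusted p = 0.00218, and 0.0633 with offsets). The lysosomal arginine transporter Slc38a9 averaged 17.9 ± 8.22 CPM in Telogen and 45.1 ± 5.21 CPM in Anagen (-1.33, adjusted p = 0.00899).

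Downstream, 2 of 19 tested mTORC1 substrates and effectors were higher in Telogen, 6 lower and 11 did not pass; the number higher was 4 in DESeq2, with its size factors in edgeR, without Anagen 1 and 2, and with offsets. Eif4e, the cap-binding translation factor, averaged 545 ± 157 CPM in Telogen and 144 ± 19.4 CPM in Anagen (log2 fold change 1.92, adjusted p = 6.12e-05, edgeR). Ulk1, the kinase that starts autophagy, was at 12.1, 18.4 and 14.5 CPM in Telogen, against 87.9, 73.3, 80.8 and 77.5 CPM in Anagen (-2.41, adjusted p = 2.69e-05). Pdcd4, an inhibitor of translation initiation, averaged 120 ± 23.9 CPM in Telogen and 469 ± 106 CPM in Anagen (-1.962, adjusted p = 7.2e-05). Mitf, of the transcription factor family that mTORC1 keeps out of the nucleus, averaged 211 ± 83.3 CPM in Telogen and 8.04 ± 4.03 CPM in Anagen (4.71, adjusted p = 7.53e-06). Mitf is also a melanocyte marker. The 5 listed of 7 melanocyte markers, Mitf included, summed to 166, 181 and 319 CPM in Telogen 1 to 3 and 16.6 to 24.7 CPM in Anagen. Mitf alone was at 158, 167 and 307 CPM in Telogen 1 to 3 and 4.89 to 13.8 CPM in Anagen. Most of the Telogen sum was thus Mitf itself, and the sum is no separate measure of melanocytes. The part of melanocytes in the Mitf value was not tested.

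Of 15 tested AKT and mTORC2 substrates, 1 was higher in Telogen (2 in DESeq2 and without Anagen 4), 9 were lower and 5 did not pass. Sgk3, a kinase related to AKT, averaged 1079 ± 142 CPM in Telogen and 162 ± 28.2 CPM in Anagen (log2 fold change 2.73, adjusted p = 2.35e-06, edgeR). Foxo1, a transcription factor that AKT keeps out of the nucleus, was at 23.5, 18.4 and 48.7 CPM in Telogen, against 168, 176, 213 and 322 CPM in Anagen (-2.87, adjusted p = 0.000139). Prkca, a protein kinase C that mTORC2 phosphorylates, averaged 16.98 ± 8.05 CPM in Telogen and 108 ± 18.2 CPM in Anagen (-2.67, adjusted p = 9.54e-05). Tbc1d1, a regulator of glucose transporter traffic, averaged 6.38 ± 2.73 CPM in Telogen and 44.2 ± 2.82 CPM in Anagen (-2.79, adjusted p = 9.01e-05).

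Tsc2 had the smallest adjusted p of the 8 genes, and the 5 tested genes whose log2 CPM over the 7 libraries was most like that of Tsc2 were Hr (Pearson r = 0.998), Fam129b (0.998), Notch3 (0.997), Ctsd (0.996) and Psapl1 (0.996). Hr encodes the hairless corepressor, Notch3 a receptor and Ctsd a lysosomal protease. These 7 libraries form 2 separate groups, so r is mainly the difference between groups and is given as a description. All 5 were lower in Telogen, with log2 fold changes of -2.34 for Hr, -2.03 for Fam129b, -5.10 for Notch3, -2.74 for Ctsd and -4.94 for Psapl1.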

How the data were processed

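Per the labels' protocols, cells were sorted into Trizol and libraries came from the Ovation RNA-Seq System V2, a whole-transcript amplification kit. The deposited table gave the authors' raw read counts per gene and RPKM, per the file headers; RPKM equalled count over length and total in 107905 of 107905 values (relative tolerance 1e-10). The build was mm10, as the submitters' processing notes state; aligner, counter and strand handling: not given in the sources used here. Reads of close paralogs may be split or lost.

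Counts were tested with edgeR 4.0.16 (R 4.3.3; robust quasi-likelihood, TMM, minimum count 10, minimum total 15) on 3 Telogen and 4 Anagen libraries, with Benjamini-Hochberg adjustment over 12266 genes and a threshold of 0.05. CPM use TMM-scaled totals. SE is the absolute log2 fold change over the square root of F. Levels between genes are compared in RPKM. Alternatives were DESeq2 1.42.0, its size factors, no filter, a required fold of 1.5, libraries left out, a replicate block, and offsets from splines (4 degrees of freedom) in GC content, known for 99.4% of genes from GENCODE M21, and length. A count of 3 was 0.176 to 0.589 CPM. Named were the 8 genes, up to 4 called genes per role list by adjusted p, and all mTORC1, mTORC2 and TSC genes; 2 genes that the rule names are not reported here. The genes and lists were chosen with earlier results of these data known.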

Additional observations from a re-analysis of the deposited data

Results flagged for a closer look

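Among 51 genes checked for a single Anagen library far from the other 3, 3 were found, and chance alone flags about 1 in 20 groups. Sesn1 was at 240.5 CPM in Anagen 3, with the others at 211.9 to 215.8 CPM (a gap of 0.867 of the range). That library lies further from Telogen than the rest, and without it Sesn1 still passed in edgeR. Akt1s1 was at 7.06 CPM in Anagen 2, below the 12.2 to 12.9 CPM of the others (a gap of 0.870 of the range). Prr5l was at 1.01 CPM in Anagen 1, with the others at 0 to 0.165 CPM (a gap of 0.836 of the range), and it was not tested. Groups of 3 were not checked.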

How the results depend on the processing

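Tsc2 kept its direction and its call under every alternative run, with a log2 fold change between -2.06 and -1.87 (Telogen minus Anagen) when libraries were left out in turn. DESeq2, its size factors in edgeR and no filter on low counts gave the same calls for all 8 genes. The share of all genes that passed was 43% in DESeq2, 49.3% with its size factors in edgeR and 38.9% with no filter. The number of the 8 higher in Telogen, 1 in the results above, was 0 when a fold over 1.5 was required, 0 without Anagen 1 and 2, and 2 with GC and length offsets; leaving out single libraries gave 0 to 1 (0 without Telogen 1). Of all tested genes, 36.4% passed with the required fold and 43.0% to 47.7% with single libraries left out. The number lower, 5 above, was 3 with the required fold (Akt1, Mtor and Tsc2), 2 with offsets, and 4 to 5 with single libraries left out. The offsets moved the median of all genes by -0.013. The Rictor to Rptor difference of 0.73 was 0.09 (0.0869) as a difference of edgeR fold changes with offsets, an alternative chosen after seeing the data; Pkd1 turned to 0.0084 (adjusted p = 0.989) with them. Over single named genes and alternatives, 644 values kept their side of the threshold, 50 lost the call, 5 gained it and 1 reversed. A change of sign was counted as reversed only where the gene passed with or without the alternative. Genes that passed in neither fit may have changed sign among the 644. The cause was not tested.

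Sample numbers showed no clear pairing of the libraries: deviations of same-numbered samples correlated at 0.0042, 0.079 and -0.045. Telogen 1 and 3 each correlated best with Anagen 4, while Telogen 2 correlated best with Anagen 2. With the replicate number as a block (Anagen 4 left out), 1 of the 8 genes was higher and 4 lower, where 40.4% of all genes passed: Rptor did not pass (-0.91, adjusted p = 0.0943, edgeR). Rheb (0.0521), Deptor (0.128), Tti1 (0.0899) and Pkd1 (0.0569) also did not pass under the block. The lower depth of Telogen limits genes near its floor, such as Prr5, Prr5l and Gatsl2.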

Other observations

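Sesn1 and Tsc2 also belong to a list of 16 tested target genes of p53 and FOXO factors. Of these, 4 were higher in Telogen, 7 lower and 5 did not pass (edgeR, adjusted p under 0.05). Of all tested genes, 23.7% were higher and 25.8% lower. The median log2 fold change of the list was -0.67, against -0.09 for all genes tested. With the replicate block, where 40.4% of all genes passed, 2 of the list were higher. Cited2, a transcriptional coregulator, was at 1169, 719 and 1194 CPM in Telogen, against 36.6, 57.6, 45.7 and 56.8 CPM in Anagen (log2 fold change 4.38 ± 0.25 SE, adjusted p = 8.36e-07, edgeR). Klf9, a transcription factor, averaged 50.7 ± 31.0 CPM in Telogen and 12.9 ± 3.46 CPM in Anagen (SD, n = 3 and 4, log2 fold change 1.97, adjusted p = 0.00501, edgeR). Its groups overlapped: Klf9 was at 73.5, 15.3 and 63.2 CPM in Telogen 1 to 3, against 15.2, 15.8, 8.18 and 12.6 CPM in Anagen 1 to 4. Cdkn1a, which encodes the cell cycle inhibitor p21, averaged 93.7 ± 33.3 CPM in Telogen and 233 ± 43.5 CPM in Anagen (-1.31, adjusted p = 0.00244). Gadd45a, a stress-response gene, averaged 57.4 ± 18.7 CPM in Telogen and 108 ± 8.66 CPM in Anagen (-0.91, adjusted p = 0.00926). Klf9, Cdkn1a and Gadd45a were named after their values were seen.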
